A study of Mus musculus with 12 samples.

Results

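Of 12 mouse lung RNA-seq libraries, 4 carried high levels of interferon-stimulated transcripts and 8 did not, and the 4 came from 3 of the 4 treatment groups. The interferon-high libraries were chosen by a single transcript, Ifit1, which encodes a protein that binds viral RNA lacking a host-type cap: a library was called high where Ifit1 reached 50 CPM, its count scaled to a library total of 1000000. The high libraries were AOS 2, busulfan 2, busulfan + AOS 2 and busulfan + AOS 3. The choice used measured values, so every gene in the contrast between high and low libraries is described with its values and carries no test.

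The study gave mice labelled as IRC strain busulfan, alginate oligosaccharides (AOS), both or neither, with 3 libraries in each of 4 groups. Busulfan is a DNA-alkylating drug used to clear bone marrow, and AOS are short sugar chains cut from brown seaweed alginate. Controls were left untreated. The AOS group was dosed with 10 mg/kg over 5 weeks. Busulfan was given as a single dose of 40 mg/kg, either alone or, in the busulfan + AOS group, ahead of the same 5-week course of AOS. The totals of the libraries lay between 16209221 and 17168764 counts, so that a count of 3, the upper limit that 0 counts allow, equals 0.175 to 0.185 CPM in counting error alone. The labels give neither the age of the animals nor whether the libraries of a group came from separate animals, so the p-values of the label groups measure only the spread between these libraries.

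Type I interferons are secreted when a cell senses foreign nucleic acid, and they bind a receptor made of IFNAR1 and IFNAR2. The receptor's kinases JAK1 and TYK2 activate a complex of transcription factors that includes STAT2 and IRF9. This complex binds the interferon-stimulated response element in the promoters of many genes whose products limit viral replication. Interferon gamma uses a separate receptor, and it is the stronger inducer of immunity-related GTPases and of antigen presentation, although the targets of both kinds of interferon overlap widely.

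The response element shows as a repeat of GAAA spaced by 2 bases, GAAANNGAAA, or TTTCNNTTTC where it is read on the other strand. It was searched on both strands, with overlapping matches counted, from 250 bases before to 50 bases after each start in RefSeq's promoter sequences of build GRCm38.p6. The promoters below belong to genes whose levels are described in the following paragraphs, with 15 bases of context on each side and the matches in capitals, each written along the strand of its gene.
Ifit1 promoter, chr19:34640770-34640828, plus strand: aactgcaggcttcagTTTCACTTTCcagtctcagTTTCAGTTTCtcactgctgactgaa
Isg15 promoter, chr4:156200860-156200911, minus strand: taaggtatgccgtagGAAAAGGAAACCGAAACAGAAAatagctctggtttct
Oas1a promoter, chr5:120907515-120907560, minus strand: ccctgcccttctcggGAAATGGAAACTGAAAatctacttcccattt
Stat2 promoter, chr10:128270261-128270300, plus strand: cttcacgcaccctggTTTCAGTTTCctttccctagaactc
Igtp promoter, chr11:58199507-58199546, plus strand: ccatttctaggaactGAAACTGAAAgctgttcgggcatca
B2m promoter, chr2:122147533-122147572, plus strand: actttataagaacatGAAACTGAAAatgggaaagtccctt
In Isg15 3 matches overlap in 1 run, and in Oas1a 2 do. The windows of Irf7 and Tap1 held no match to these letters. Of all 27025 genes with a promoter sequence, 3.99% held the motif. It was held by 20 of 43 interferon effectors with a sequence (46.5%), by 10 of 11 interferon gamma-inducible genes (90.9%) and by 3 of 18 regulators (16.7%). Among the 88 genes with a sequence whose high libraries all lay above the low ones, 35 held it (39.8%). Among 21 whose high libraries all lay below, 1 did (4.76%). A match of letters is a description and not a bound site.

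Ifit1 itself set the groups. In CPM of the library total it stood at 64.0 in busulfan 2, 70.5 in busulfan + AOS 2, 119 in AOS 2 and 170 in busulfan + AOS 3. The 8 low libraries lay between 11.9 in AOS 1 and 25.3 in AOS 3. No library lay between 25.3 and 64.0 CPM, so the library just outside the threshold and the one just inside it were far apart. High libraries numbered 3 of 6 with busulfan and 1 of 6 without it, and the same counts held for AOS (Fisher's exact test, two-sided, p = 0.545 for each). With so few libraries, not even the most uneven split could reach a p under 0.05 in this test. It therefore cannot decide whether the state follows a treatment. By the replicate numbers of the labels, 0 of 4 libraries numbered 1 were high, 3 of 4 numbered 2 and 1 of 4 numbered 3. The control group held no high library.

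**Figure D1:**
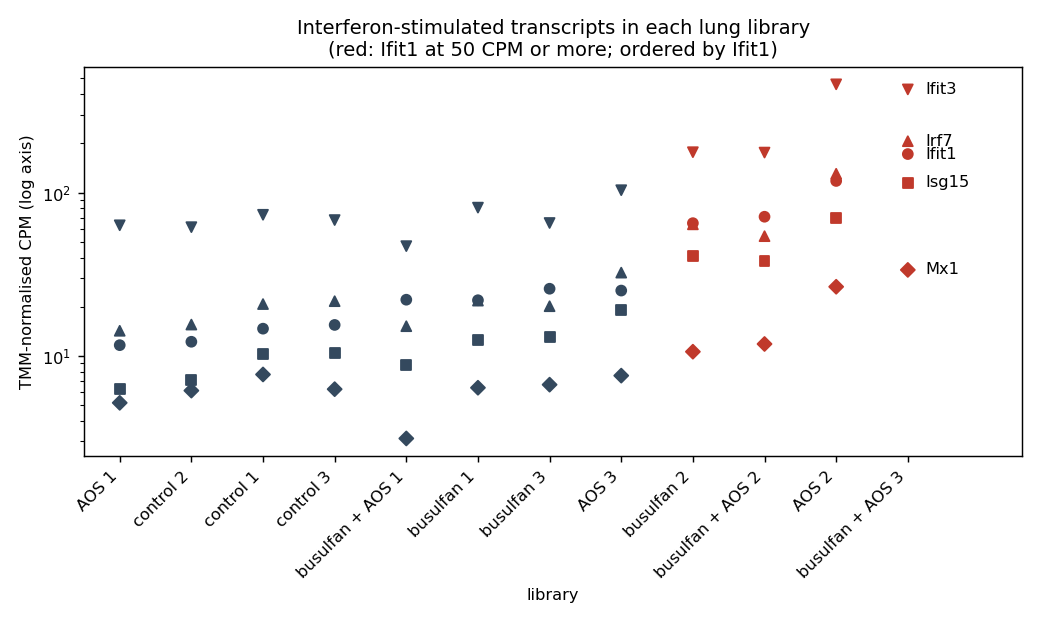
Levels of Ifit1, Isg15, Irf7, Mx1 and Ifit3 (vertical axis, TMM-normalised CPM on a log axis) in each of the 12 libraries (horizontal axis, ordered by Ifit1), with the 4 high libraries in red and the 8 low ones in dark blue. For each of these genes the 4 red points stand above all 8 blue ones, and AOS 2 and busulfan + AOS 3 stand above busulfan 2 and busulfan + AOS 2.

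From here on, levels are TMM-normalised CPM, and a log2 difference is the high libraries minus the low ones in a fit with busulfan as a covariate. A gene is said to separate the libraries where all 4 high libraries lay above, or all below, all 8 low ones. Of 15863 genes tested, 128 separated them upward (0.807%) and 25 downward (0.158%). The median log2 difference over all genes was -0.01. Levels of different genes are compared only in the authors' FPKM values, which are per length.

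Of 58 interferon effectors, the antiviral products of the response, 57 passed the filter on low counts, and all 57 had a positive log2 difference with a median of 1.25. All 4 high libraries lay above all 8 low ones for 38 of them, against 0.807% of all genes. Ifit1 is 1 of the 57 and was used in the choice. The summed level of the 57 effectors was 5841 to 9685 CPM in the high libraries and 3359 to 4585 CPM in the low ones.

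Isg15, a ubiquitin-like modifier, stood at 40.9 CPM in busulfan 2, 37.9 in busulfan + AOS 2, 69.7 in AOS 2 and 115 in busulfan + AOS 3. The low libraries ran from 6.30 to 19.1 CPM with a median of 10.4. The groups did not overlap, and the log2 difference was 2.57. Ifit3, whose human counterpart binds IFIT1 and steadies it on RNA, stood at 177, 176, 459 and 428 CPM in the same order, against 47.0 to 103 with a median of 66.5. Ifi44, an interferon-induced cytoplasmic protein, stood at 76.3, 62.5, 122 and 152 CPM, against 10.8 to 31.6 with a median of 15.5. The 3 genes thus had AOS 2 and busulfan + AOS 3 above the other high libraries, with AOS 3 the highest of the low ones.

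Oas3, which makes the 2-5A signal that activates RNase L, stood at 10.2, 11.5, 19.1 and 29.3 CPM in the same order of libraries, against 1.25 to 8.26 with a median of 3.28. Mx1, a dynamin-like GTPase that blocks influenza viruses, stood at 10.6, 11.8, 26.5 and 33.6 CPM, against 3.13 to 7.71 with a median of 6.33. Zbp1, a sensor of Z-form nucleic acid that can start necroptosis, stood at 22.7, 20.4, 50.2 and 62.0 CPM, against 5.88 to 13.9 with a median of 8.01. All 3 separated the libraries, with log2 differences of 2.43, 1.87 and 2.30. Usp18, which removes ISG15 from proteins and dampens the receptor, stood at 43.6, 37.5, 67.8 and 81.9 CPM against 15.2 to 27.5, and it separated them too. Bst2, or tetherin, which holds budding virus at the cell surface, stood at 131, 120, 149 and 240 CPM, against 43.7 to 73.7.

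Among the effectors that are abundant per length, Ifitm3, which blocks viral fusion in endosomes, had the highest median of the authors' FPKM in both groups, 822 to 1442 in the high libraries and 526 to 726 in the low ones. Ly6e, a surface protein that restricts coronavirus entry, followed with 817 to 1248 FPKM against 438 to 742. Ifi27l2a stood at 527 to 1208 FPKM in the high libraries and 102 to 358 in the low ones. The abundant Ifitm3 and Ly6e had smaller log2 differences in the counts, 0.83 and 0.70, than Ifi27l2a, which had 2.08.

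Not every effector separated the libraries: 19 of the 57 overlapped. Rsad2, or viperin, stood at 22.04, 17.9, 35.9 and 47.9 CPM in busulfan 2, busulfan + AOS 2, AOS 2 and busulfan + AOS 3, against 9.39 to 19.6, so a single high library fell within the low range. Oasl2 was already abundant in the low libraries, at 382 to 721 CPM, and the high ones lay at 601 to 819. Slfn8, Ifi27, Isg20 and Nmi had log2 differences of 0.02, 0.16, 0.20 and 0.24. For some overlapping genes 1 or a few libraries decided the value. Trim30d stood at 24.3 CPM in busulfan + AOS 3 and at 0.06 to 2.60 in the other 11 libraries. Ifi47 stood at 60.9 CPM in AOS 2, 16.0 in control 3 and 14.6 in busulfan 1, and at 3.00 or less in the other libraries. Oas1a, an enzyme of the same 2-5A family as Oas3, separated the libraries at 31.3 to 74.5 CPM against 8.68 to 19.6. Reads of near-identical copies may be split by the counting, so the separate values of Ifit3 and Ifit3b, Oas1a and Oas1g, Apol9a and Apol9b, and of Tgtp1 and Tgtp2 are uncertain.

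**Figure D2:**
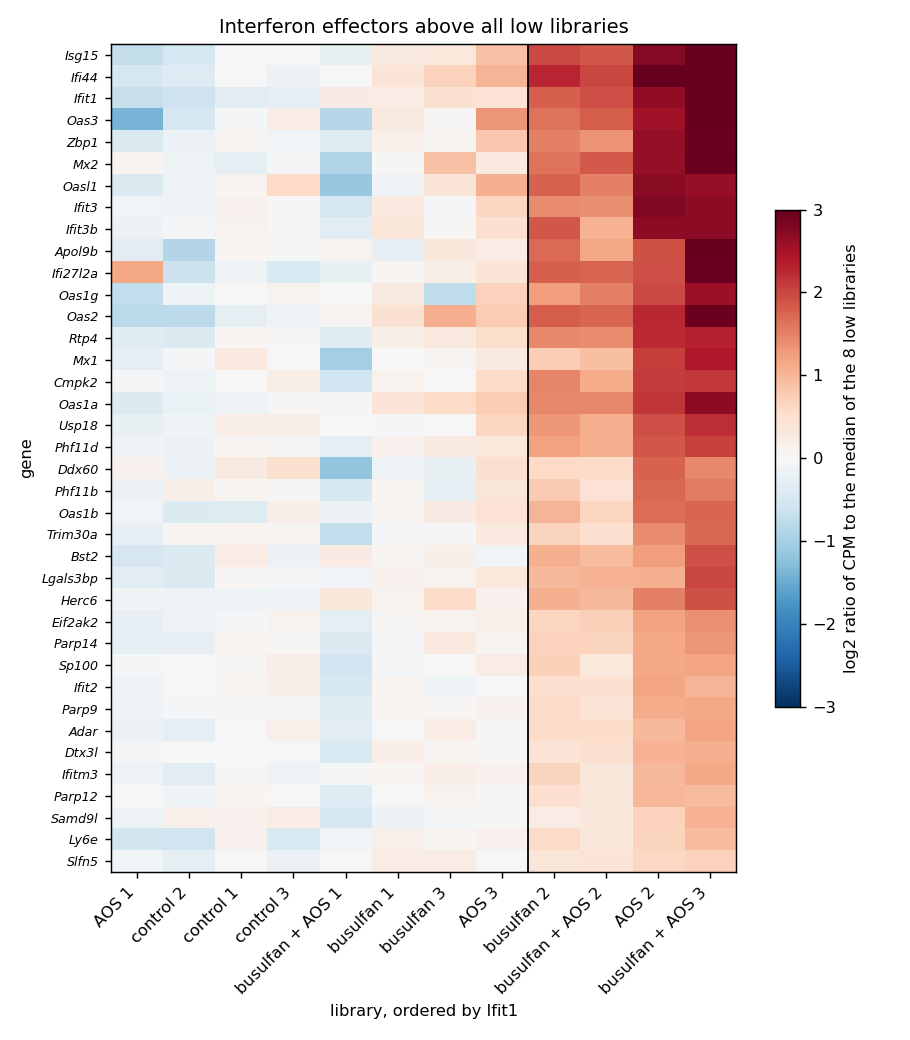
Colour gives the log2 ratio of the CPM to the median of the 8 low libraries, for the 38 interferon effectors (rows, ordered by log2 difference) whose high libraries all lay above the low ones, in the 12 libraries (columns, ordered by Ifit1). Values beyond 3 are drawn in the end colour, and the vertical line divides low from high libraries. The last 2 columns, AOS 2 and busulfan + AOS 3, are the darkest red, with median ratios over these 38 chosen genes of 3.53 and 4.06 on the linear scale.

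The high libraries were not alike in degree. For all 38 separating effectors, AOS 2 and busulfan + AOS 3 both lay above busulfan 2 and busulfan + AOS 2. Over these 38, the median ratio to the median of the low libraries was 4.06 in busulfan + AOS 3, 3.53 in AOS 2, 2.10 in busulfan 2 and 2.01 in busulfan + AOS 2. The 38 were chosen for separating the libraries, so every ratio of a high library is above 1 by that choice. The 19 effectors that overlapped are left out of these medians. Busulfan + AOS 3 was the highest library for 31 of the 38 and AOS 2 for 7. Among the low libraries AOS 3 was the highest for 20 of the 38, with a median ratio of 1.25, and busulfan + AOS 1 had the lowest median ratio, 0.803. With 1 to 3 libraries in each treatment at each degree, the degrees are described and were not tested against each other.

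The 8 low libraries were kept for their low Ifit1, so the correlations below describe these libraries only. They differ in busulfan and in AOS, which AOS 1, AOS 3 and busulfan + AOS 1 received. No correlation here or in the next paragraph adjusts for AOS, and the permutations over all 8 treat libraries of different treatments as exchangeable. Ifit1 in CPM of the library total was 21.3 to 25.1 in the 3 with busulfan and 11.9 to 25.3 in the 5 without, where AOS 3 was the highest. Over the 8, Ifit1 correlated with Isg15 (Pearson's r = 0.82, exact permutation p = 0.0101, adjusted p = 0.0304 over 6 relations; Spearman's rho = 0.83, exact p = 0.0154, adjusted p = 0.0653). With B2m, the light chain of class I MHC, r was 0.81 (exact permutation p = 0.00526, adjusted p = 0.0304) and rho 0.81 (exact p = 0.0218, adjusted p = 0.0653). Without AOS 1 and control 2, the libraries farthest from the median of Ifit1, r fell to 0.56 for Isg15 and 0.60 for B2m over 6 libraries. The r of Irf7 was 0.58, of Oasl2 0.44 and of Gbp2 -0.07, and these 3 did not pass the adjustment (exact permutation, adjusted p = 0.175, 0.327 and 0.854). Their rho values were 0.45, 0.62 and -0.12 (exact p = 0.267, 0.115 and 0.793; adjusted p = 0.321, 0.172 and 0.793), and their r without the same pair of libraries 0.18, 0.62 and 0.15.

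With the busulfan means removed and pairings permuted within each busulfan stratum, a calculation added after the pooled values were seen, r was 0.95 for Isg15, 0.92 for B2m and 0.91 for Irf7 (exact permutation, adjusted p = 0.0167, 0.0479 and 0.0306 over 6 relations). For Oasl2 it was 0.33 and for Gbp2 -0.01 (exact permutation, adjusted p = 0.413 and 0.967). These calls rest on AOS 3: without it r was 0.86 for Isg15, 0.78 for Irf7 and 0.55 for B2m over 7 libraries, with unadjusted exact permutation p = 0.0764, 0.132 and 0.326. The unadjusted exact p of Irf7 also rose to 0.0764 without AOS 1 or control 2, and that of B2m to the same value without AOS 1 or any 1 of the 3 controls.

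Of 20 regulators, the genes that carry the interferon signal, 4 separated the libraries upward, against 0.807% of all genes, and the other 16 overlapped. The list had a median log2 difference of 0.06. Irf7, Stat2 and Irf9 were among them. Irf7, the factor that amplifies interferon alpha transcription, stood at 63.9 CPM in busulfan 2, 54.1 in busulfan + AOS 2, 130 in AOS 2 and 206 in busulfan + AOS 3, against 14.3 to 32.4 with a median of 20.5. Its log2 difference was 2.55. Stat2 and Irf9, of the complex that binds the response element, had smaller differences, 1.27 and 1.13. Stat2 stood at 113, 117, 160 and 231 CPM in the same order, against 49.4 to 83.8 with a median of 61.1. Irf9 stood at 102, 96.7, 125 and 134 CPM, against 40.1 to 68.6 with a median of 49.7.

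The receptor chain gene Ifnar1 lay at 86.5 to 104 CPM in the high libraries and 85.8 to 106 in the low ones. Ifnar2 lay at 99.96 to 109 against 90.7 to 106, and the kinase gene Jak1 at 238 to 270 against 245 to 280. Irf3, the constitutive partner of IRF7 that is activated by phosphorylation, lay at 58.0 to 63.7 against 54.4 to 63.8. These 4 genes overlapped fully or nearly so, with log2 differences between -0.03 and 0.05.

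The interferon transcripts that could be counted gave little signal. Of 18 ligand genes listed, 8 were among the 19726 genes of the authors' data, and 4 passed the filter. Ifng had 45 counts over the 12 libraries, with 1 in busulfan 2, 4 in busulfan + AOS 2, 2 in AOS 2, 7 in busulfan + AOS 3 and up to 9, in control 3, among the low ones. Ifna2 and Ifnk had 1 count each, so all 3 fell under the filter. The 4 ligand genes tested, the interferon gamma-inducing cytokines Il12b, Il12a, Il18 and Il15, had log2 differences of 0.51, -0.11, -0.05 and 0.01, and none separated the libraries. The gene for interferon beta and most interferon alpha genes were not analysed here.

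Of 16 sensor genes of nucleic acid tested, 3 separated the libraries upward, against 0.807% of all genes. They were Dhx58, Ifih1 and Ddx58, which encode LGP2, MDA5 and RIG-I, the cytoplasmic sensors of viral RNA. Dhx58 stood at 14.1, 14.2, 27.8 and 33.1 CPM in busulfan 2, busulfan + AOS 2, AOS 2 and busulfan + AOS 3, against 5.45 to 10.6. Ifih1 stood at 73.9, 67.7, 109 and 118 CPM against 37.1 to 60.4, and Ddx58 at 114, 115, 144 and 182 against 63.5 to 90.9. Their adaptor gene Mavs had a log2 difference of -0.06, Tmem173, which encodes STING, -0.01, and Myd88, the adaptor of the Toll-like receptors, -0.04. The DNA exonuclease gene Trex1 stood at 7.17, 6.70, 13.3 and 13.2 CPM against 3.80 to 7.34, with busulfan 2 and busulfan + AOS 2 within the low range.

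Of 21 interferon gamma-inducible genes tested, mostly immunity-related GTPases and guanylate-binding proteins that attack vacuoles holding intracellular pathogens, 11 separated the libraries upward, against 0.807% of all genes, and 19 had a positive difference, with a median of 1.24. Gbp6 stood at 123 CPM in busulfan 2, 107 in busulfan + AOS 2, 215 in AOS 2 and 252 in busulfan + AOS 3, against 32.7 to 61.8 with a median of 40.8. Igtp stood at 56.4, 57.2, 112 and 135 CPM against 22.2 to 40.9 with a median of 26.8. Gbp2 stood at 115, 95.4, 148 and 158 CPM against 69.1 to 85.0 with a median of 79.5. All 3 separated, and Gbp6 had the largest log2 difference of the list, 1.97.

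Iigp1, another of these GTPases, overlapped: it stood at 54.8, 79.0, 201 and 247 CPM in the same order, against 29.99 to 66.3. Tgtp2 stood at 59.0 CPM in AOS 2 and at 7.71 or less in the other 11 libraries, and it was listed at 0 in 5 of them. Further known targets of interferon gamma on the list did not separate. Ciita, the master regulator of class II MHC, had a log2 difference of 0.33, the tryptophan-degrading enzyme gene Ido1 -0.08 and the inducible nitric oxide synthase gene Nos2 -0.39. Cd274, which encodes PD-L1, stood at 21.7 and 21.0 CPM in busulfan 2 and busulfan + AOS 2, within or near the low range of 13.8 to 21.4, and at 40.4 and 35.04 in AOS 2 and busulfan + AOS 3.

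Among 18 class I antigen presentation genes, 16 had a positive difference with a median of 0.49, and 4 separated upward, against 0.807% of all genes: Tap1, H2-K1, Psme2 and Tapbpl. Psme2 lay at 84.4 to 112 CPM against 73.4 to 82.8, and Tapbpl at 37.53 to 42.6 against 29.4 to 37.36. Both margins were narrow. H2-K1, a heavy chain, stood at 671.3 CPM in busulfan 2, 828 in busulfan + AOS 2, 724 in AOS 2 and 1259 in busulfan + AOS 3, against 475 to 670.6, so it separated them by a narrow margin. B2m stood at 1071, 1248, 1097 and 1970 CPM in the same order, against 760 to 1079 with a median of 860, so a single high library fell within the low range. B2m had the highest level per length of all the interferon and class I genes, with 1460 to 2713 authors' FPKM in the high libraries and 1068 to 1502 in the low ones. Nlrc5, the transcriptional activator of class I genes, stood at 23.8, 28.7, 51.5 and 65.6 CPM against 14.0 to 27.8.

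**Figure D3:**
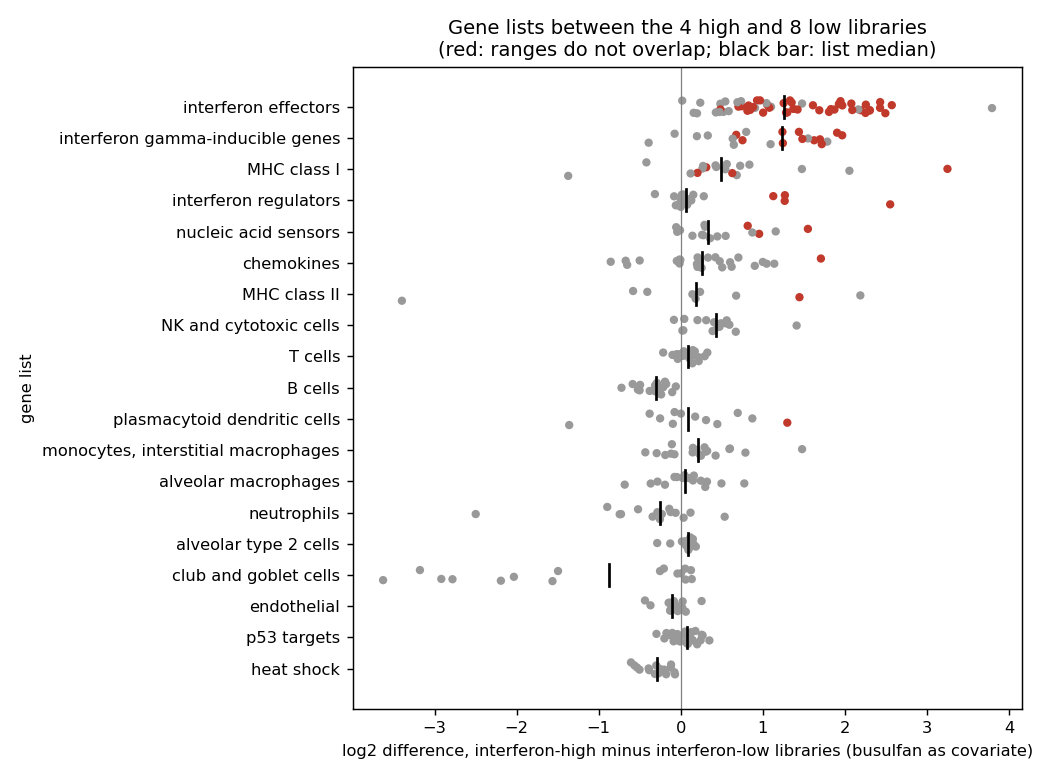
Each point is a gene, placed by its log2 difference between the 4 high and the 8 low libraries (horizontal axis, busulfan as covariate) in the row of its gene list (vertical axis); red points separate the libraries, grey ones overlap, and the black bar is the list's median. The effectors and interferon gamma-inducible genes centre at 1.25 and 1.24, the regulators at 0.06 with 4 red points to the right, and the lists of T cells, alveolar cells and p53 targets lie near 0.

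Tap1, a subunit of the pump that loads peptides into the endoplasmic reticulum, stood apart from the other class I genes. It stood at 12.3, 13.6, 9.75 and 12.96 CPM in busulfan 2, busulfan + AOS 2, AOS 2 and busulfan + AOS 3. Among the low libraries control 3 had 4.26 and busulfan 1 had 3.77, control 2 had 0.67, busulfan + AOS 1 had 0.38, and the other 4 were listed at 0. It separated the libraries, but its order did not follow Ifit1, since AOS 2 had the lowest Tap1 of the high libraries. Its neighbour Tap2, the partner in the same pump, went another way, at 17.9, 26.0, 62.4 and 65.3 CPM in the same order against 45.7 to 77.1.

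Other genes of the H2 interval of chromosome 17 shared this kind of pattern. The interval, chosen after its values were seen, runs from the start of H2-K1 to the end of H2-M3 (chr17:33996012-37274485, GRCm38) and holds class I, class II and unrelated genes. Of its 110 genes with a mean of at least 1 CPM, 15 had a log2 difference of at least 1 in either direction (13.6%), against 2.79% of all 14928 such genes, 6 of them higher and 9 lower. Of its 125 genes tested, 5 separated upward and 0 downward, against 0.807% and 0.158% of all genes.

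H2-Ea-ps, annotated as the pseudogene of a class II alpha chain, stood at 88.7 CPM in busulfan 2, 88.5 in busulfan + AOS 2, 69.05 in AOS 2 and 65.9 in busulfan + AOS 3, at 64.0 in control 3 and 45.9 in busulfan 1, and at 2.35 to 7.41 in the other 6 libraries. H2-Eb1, a class II beta chain, followed it with 32.6, 32.7, 22.3 and 26.6 CPM in the high libraries, 24.8 in control 3 and 15.5 in busulfan 1, and 0.12 to 3.12 elsewhere. The class II chaperone gene H2-DMb1 stood at 35.5, 35.1, 32.1 and 31.2 CPM against 7.85 to 20.7, with busulfan 1 and control 3 the highest of the low libraries. In these 3 genes control 3 and busulfan 1, both low in Ifit1, stood nearer to the high libraries than the other low ones did. The main class II genes outside this pattern were level, with log2 differences of 0.23 for H2-Aa, 0.18 for H2-Ab1 and 0.14 for Cd74.

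Further along the interval several genes were low in the 4 high libraries and in control 3. They do not form an unbroken run: genes between them such as Mdc1 and Dhx16 were level, with log2 differences of -0.10 and -0.04. Ier3, an immediate early gene, stood at 4.31 CPM in busulfan 2, 6.04 in busulfan + AOS 2, 2.97 in AOS 2, 1.41 in busulfan + AOS 3 and 3.31 in control 3, and at 35.1 to 79.1 in the other 7 libraries. Flot1, a scaffold protein of membrane rafts, stood at 3.77, 9.57, 1.70, 2.12 and 4.32 CPM in the same 5 libraries and at 21.9 to 42.9 in the other 7. Ppp1r10, Abcf1, Gnl1, Tubb5, H2-T22 and Ppp1r11 showed the same 5 libraries below the other 7. In the pooled contrast these genes overlap, because control 3 is a low library with low values. Reads of related H2 genes may be split or lost in the counting, and the part of this in the values of the H2 genes was not tested. Ier3, Flot1, Ppp1r10, Abcf1, Gnl1, Tubb5 and Ppp1r11 are not H2 genes, and the cause of their low values was not tested.

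**Figure D4:**
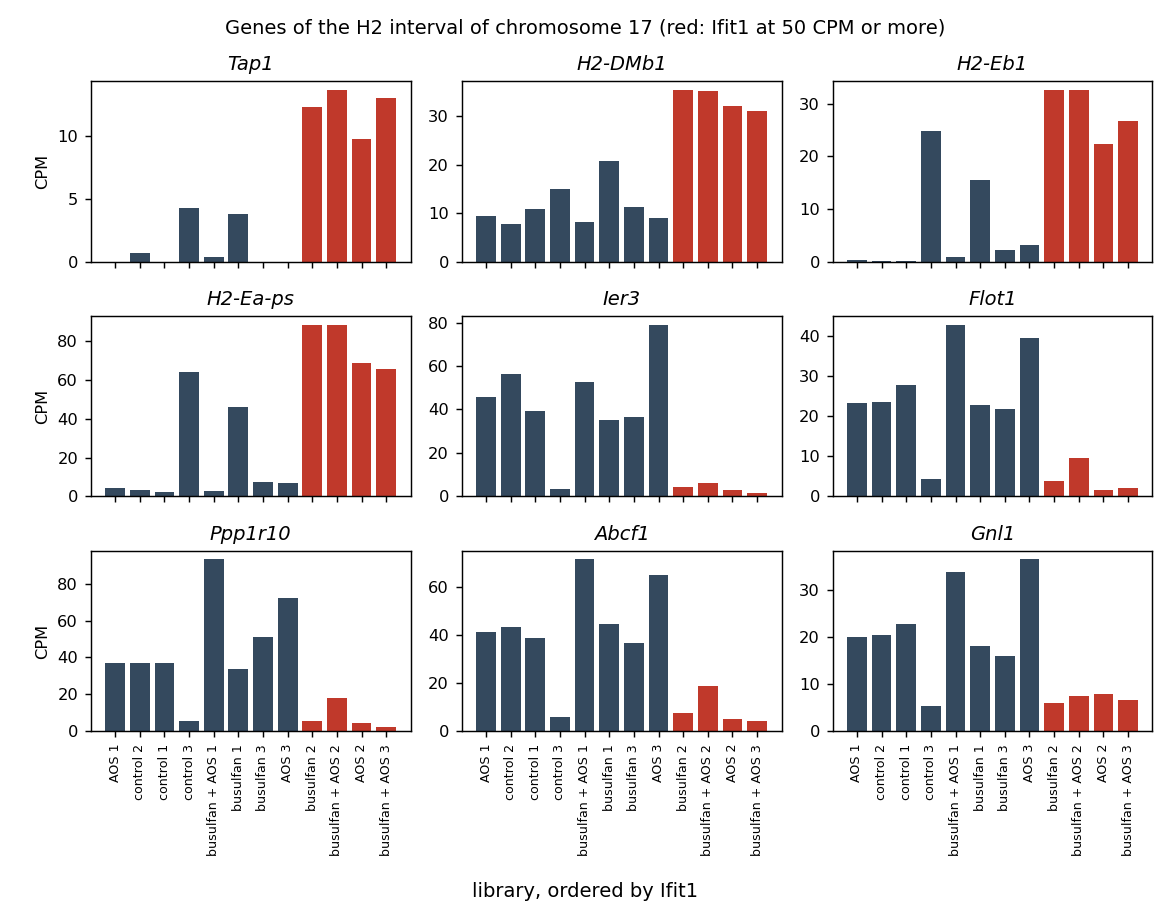
TMM-normalised CPM (vertical axes, from 0, scaled per gene) of 9 genes of the H2 interval in the 12 libraries (horizontal axis, ordered by Ifit1), with high libraries in red. Tap1, H2-DMb1, H2-Eb1 and H2-Ea-ps are tall in the red bars, with control 3 and busulfan 1 the tallest blue bars and control 3 above AOS 2 for H2-Eb1, and Ier3, Flot1, Ppp1r10, Abcf1 and Gnl1 are short in the red bars and in control 3.

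Outside the interferon lists, 54 named genes separated the libraries upward. Several of them are known interferon targets that the lists did not hold. Slfn4, a Schlafen gene of myeloid cells, stood at 51.5 CPM in busulfan 2, 65.3 in busulfan + AOS 2, 105 in AOS 2 and 90.3 in busulfan + AOS 3, against 6.36 to 44.5. Rnf213, a large ubiquitin ligase with antimicrobial activity, stood at 339, 297, 410 and 582 CPM against 115 to 214. Siglec1, the sialic acid receptor CD169 of macrophages, stood at 19.7, 19.1, 35.2 and 47.2 CPM against 11.5 to 18.4. Lgals9, the lectin galectin 9, stood at 153, 134, 163 and 209 CPM against 78.1 to 116. Smaller differences came from Nampt, an enzyme of NAD synthesis, at 121 to 147 CPM against 92.7 to 110, and from Mlkl, the pore-forming effector of necroptosis, at 12.2 to 14.96 against 9.08 to 11.4. The upward genes lay on 20 chromosomes and had a median log2 difference of 1.11.

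The 25 genes that separated the libraries downward, 0.158% of 15863, had a median log2 difference of -0.40, and 4 of them reached a difference of 1. Whether an arbitrary split into 4 and 8 libraries would give as many was not tested. None of the 21 named genes among the 25 was on an interferon list. Klhl30 stood at 1.09, 1.08, 0.18 and 1.12 CPM in busulfan 2, busulfan + AOS 2, AOS 2 and busulfan + AOS 3, against 1.16 to 4.68, which is a difference close to the floor of the counts. Slc4a1, the anion exchanger of red cells, stood at 8.08, 4.73, 9.09 and 4.12 CPM against 9.28 to 12.8. Deptor, an inhibitor of mTOR, stood at 71.9, 63.8, 53.2 and 59.3 CPM against 75.1 to 92.5 with a median of 79.8. Aqp1, the water channel of endothelium and red cells, stood at 678, 645, 652 and 564 CPM against 690 to 827 with a median of 765. Both Slc4a1 and Aqp1 are made by red cells. The erythroid and platelet list as a whole had a median of -0.26. Of its 18 genes 1 separated downward, against 0.158% of all genes. The summed level of that list overlapped between the groups, at 2894 to 12308 CPM in the high libraries and 4767 to 12597 in the low ones, and its part in the values of Slc4a1 and Aqp1 was not tested.

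Haemoglobin beta copies stood apart in 1 library. Hbb-bs stood at 819 CPM and Hbb-bt at 140 in busulfan + AOS 3, at 15.5 and 3.88 in busulfan + AOS 1, and at 2.09 or less in the other 10 libraries. In busulfan + AOS 3 the near-identical Hbb-b1 and Hbb-b2 were the lowest of the 12 libraries, at 1094 and 178 CPM, against 1810 to 7459 and 309 to 1447 elsewhere. The 4 genes share sequence, and how the counting divided their reads was not tested. Without busulfan + AOS 3 the log2 difference of Hbb-bs went from 4.82 to -0.36.

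Immune cell lists showed no shift of the size seen in the effectors. In bulk tissue, fewer cells of a type and less RNA per cell cannot be told apart. Of 22 T cell genes, 0 separated the libraries, with a median of 0.09 and a summed level of 153 to 214 CPM in the high libraries and 140 to 297 in the low ones. Of 16 natural killer and cytotoxic genes, 0 separated and 15 had a positive difference, with a median of 0.43; the sums were 57.1 to 145 CPM and 53.8 to 142. Klra8, a receptor of natural killer cells, had the largest difference there, 1.41, with 0.67 CPM in busulfan 2 and 1.53 to 1.79 in the other high libraries, against 0.18 to 1.01. Its lowest value lay at the floor of the counts. Of 15 neutrophil genes, 0 separated, with a median of -0.25. Alveolar macrophage genes had a median of 0.05.

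All 18 B cell genes had a negative difference, with a median of -0.30, and 0 separated. Busulfan lowered 17 of these 18 genes and 4.81% of all genes (edgeR's quasi-likelihood test, adjusted p under 0.05). Of the 4 high libraries 3 had busulfan, which the fit holds as a covariate. Within the busulfan-treated libraries alone the median was -0.17. The summed B cell level was 118 CPM in busulfan 2, 117 in busulfan + AOS 2, 131 in busulfan + AOS 3 and 226 in AOS 2, against 91.9 to 169 in the low libraries with busulfan and 208 to 421 in those without.

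Plasmacytoid dendritic cells are the main producers of interferon alpha. Of their 12 marker genes, 7 had a positive difference, with a median of 0.09. Against 0.807% of all genes, 1 of them separated the libraries upward, Bst2, which is also on the effector list. Siglech, their defining surface marker, had a log2 difference of -0.38 and stood at 0.85, 1.496, 2.73 and 1.06 CPM in busulfan 2, busulfan + AOS 2, AOS 2 and busulfan + AOS 3. The low libraries ran from 1.19 to 4.68 CPM, and Siglech fell with busulfan (log2 fold change -1.36, SE 0.21, edgeR adjusted p = 0.00454). Among 20 monocyte and interstitial macrophage genes 0 separated, with a median of 0.21. The largest difference came from Ms4a4c, 1.48, which is also on the effector list, with 20.5 CPM in AOS 2 and 21.4 in busulfan + AOS 3 but 7.35 and 9.81 in the other high libraries, against 2.32 to 9.58. Plac8 and Ly6c2, of circulating monocytes, had differences of 0.60 and 0.59.

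The list of 25 chemokine genes had a median of 0.25, and 1 gene separated the libraries upward, against 0.807% of all genes. It was Ccl12, whose product draws monocytes, with 1.03, 1.38, 1.21 and 2.89 CPM in busulfan 2, busulfan + AOS 2, AOS 2 and busulfan + AOS 3, against 0.18 to 0.90. The lowest of these values lay at the floor of the counts. Cxcl10, the ligand of CXCR3 that interferons induce, stood at 9.84 CPM in busulfan + AOS 3, at 1.15 to 2.81 in the other high libraries and at 0.54 to 2.50 in the low ones. Cxcl9, which depends on interferon gamma, stood at 1.76 to 3.04 CPM against 0.77 to 4.14.

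Alveolar and endothelial lists had medians near that of all genes. The lung markers Sftpc of alveolar type 2 cells (12087 to 15437 CPM in the high libraries, 10123 to 14737 in the low), Ager of type 1 cells (1580 to 2040 and 1490 to 1980), Scgb1a1 of club cells (23257 to 36900 and 16322 to 56378) and Pecam1 of endothelium (784 to 968 and 723 to 1052) were abundant in all 12 libraries. The lists of alveolar type 2, alveolar type 1 and endothelial cells had medians of 0.09, -0.03 and -0.10. The heat shock list had a negative difference in 16 of 16 genes with a median of -0.29, without a gene that separated. Its member Hspa1a went from -0.57 to 0.25 without the busulfan covariate. Lists of p53 targets, the unfolded protein response and the cell cycle had medians of 0.08, 0.00 and 0.00.

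Transcripts of neighbouring tissue and of airway secretory cells varied by library. The skeletal muscle list had a median log2 difference of 2.38, the largest of all lists, yet 0 of its 18 genes separated, and its summed level was 953 CPM in busulfan + AOS 3 and 32.4 to 91.1 in the other high libraries, against 22.4 to 4625 in the low ones, the highest in control 2. The heart muscle list had a median of -1.79, with sums of 303 to 690 CPM against 151 to 3466, and the liver list -1.33, with 464 to 719 against 405 to 1959. Of 16 club and goblet cell genes 0 separated, with a median of -0.87. Bpifa1, a secreted protein of upper airway epithelium, stood at 0.24 to 48.0 CPM in the high libraries and 0.55 to 532 in the low ones. Single libraries set the direction of some of these genes: without busulfan + AOS 3 the log2 difference of the muscle myosin gene Myh8 went from 4.11 to -0.97. Without busulfan + AOS 1 that of Bpifa1 went from -3.63 to 2.72 and that of the albumin gene Alb from -1.61 to 1.33. The ranges overlap widely, and the part of such tissue in the interferon values was not tested.

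The treatments as labelled were tested on all genes. Busulfan raised 1114 of 15863 genes (7.02%) and lowered 763 (4.81%), and 0 of the 57 effectors were among them (2 at an unadjusted p under 0.05). AOS changed 0 genes in either direction by edgeR (0%), with 847 at an unadjusted p under 0.05, 0 by limma-voom and 13 by DESeq2; 0 of the 57 effectors were called and 10 had an unadjusted p under 0.05, a number that ran from 1, without AOS 2 or busulfan + AOS 3, to 38, without busulfan + AOS 1. For the interaction edgeR called 0 genes (0%), with 760 at an unadjusted p under 0.05, 0 by limma-voom and 16 by DESeq2. Ifit1 had a log2 fold change of 1.09 with busulfan (SE 0.61, edgeR adjusted p = 0.257) and 1.55 with AOS (SE 0.61, adjusted p = 0.855). Without AOS 2, the high library among those that had no busulfan, the busulfan estimate for Ifit1 was 1.84 (edgeR adjusted p = 0.0647) and 2 effectors, Znfx1 and Xaf1, were called. AOS 2 is singled out here by its Ifit1, and leaving it out takes the highest Ifit1 from the libraries without busulfan. The values without it are therefore a description and no test of busulfan.

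For comparison, Zmat3, a p53 target, stood at 48.4 to 56.4 CPM in all 6 libraries with busulfan and 17.5 to 21.4 in all 6 without (log2 fold change 1.40, SE 0.05, edgeR adjusted p = 4.27e-07). Its difference between high and low libraries was 0.08 once busulfan was in the fit. Within the 6 busulfan-treated libraries, the 3 high ones exceeded the 3 low ones by a median of 1.05 over the 57 effectors, and by 0.66 over the interferon gamma-inducible genes. Adding the interferon state to the 4 group means lowered the common biological coefficient of variation from 0.229 to 0.220. Busulfan calls numbered 1877 without the state in the fit and 1446 with it, and 261 in a fit to the 8 low libraries. The state was set from Ifit1 in these same libraries, so the lower variation and these counts are descriptions and no test of the state.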

How the data were processed

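RNA-seq of 12 lung libraries was analysed. The labels' tissue field reads "Cells", while titles and protocol name lung. The title code BA0 was taken as the design text's B0. Per the file headers and their values, the authors deposited 1 table of 19726 genes with estimated counts (expected counts, not normalised) and FPKM; that unit is inferred, since count divided by total and by 1 length per gene gave it (the implied length varied by a median of 0.703% over 10949 genes). The submitters' processing notes name the build mm10. Aligner, counter and strand setting were not given in the sources used here, so overlapping and antisense genes cannot be told apart.

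Counts were rounded, filtered with filterByExpr (15863 genes) and scaled by TMM (factors 0.963 to 1.03). edgeR 4.0.16 in R 4.3.3 gave the log2 difference from a negative binomial fit on busulfan and interferon state, and tested the busulfan, AOS and interaction contrasts over 1 mean per group by quasi-likelihood F test with Benjamini-Hochberg adjustment, called at an adjusted p under 0.05. The SE derives from that test's F statistic. limma 3.58.1 and DESeq2 1.42.0 were alternatives. Correlations used log2(CPM + 0.5) in scipy 1.17.1. Procedures were tested on simulated data. Some results, of a gene among the regulators and the 6 correlations, are not reported here.

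The members and gene lists were chosen with earlier results of these data known. Named genes were Ifit1, the 15 largest differences in each direction among separating genes with a mean of at least 1 CPM, up to 4 members per list (12 for effectors, regulators and class I MHC) and a set of anchors. The other genes named, Oas1a, Mx1, Ifitm3, Ly6e, Slfn8, Ifi27, Isg20, Nmi, Ifi47, Tgtp1, Tgtp2, Ifnar2, Jak1, Irf3, Ddx58, Mavs, Tmem173, Myd88, Ciita, Ido1, Nos2, Cd274, Psme2, Tapbpl, Tap2, H2-Aa, H2-Ab1, Cd74, Flot1, Ppp1r10, Abcf1, Gnl1, Tubb5, Ppp1r11, Mdc1, Dhx16, Slfn4, Rnf213, Siglec1, Lgals9, Nampt, Mlkl, Hbb-b1, Hbb-b2, Sftpc, Pecam1, Znfx1 and Xaf1, were chosen after their values were seen.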

Additional observations from a re-analysis of the deposited data

How the results depend on the processing

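The median log2 difference of the effectors was 1.25 and lay between 1.03 and 1.51 over the alternatives, the highest with the replicate number as a block (replicate block). Of 4501 single-gene differences for 205 genes under 22 alternatives, 4345 moved by less than the spread between libraries and 156 by more. In 137 of the 4501 the sign changed, over 65 genes, and 0 of these belonged to genes that separated the libraries. Against 128 genes separating upward and 25 downward, there were 35 and 8 with the threshold at 25 CPM, and 327 and 114 at 100 CPM. At 25 CPM busulfan 3 and AOS 3 join the high libraries, and at 100 CPM only AOS 2 and busulfan + AOS 3 remain. Such counts depend by construction on how many libraries stand on each side, and how much of the shift comes from this was not tested. Fewer libraries raise such counts by construction: they were 660 and 488 in the 6 libraries with busulfan, and 138 to 220 upward, the most without AOS 2, and 28 to 97 downward with 1 library left out. The effectors that separated went from 38 to 13 at 25 CPM, and to between 38 and 45 with 1 library left out.

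Busulfan calls went from 1877 to 261 without the 4 high libraries and to between 1079 and 1667 with 1 library left out, falling by over 1.5 times without control 1, control 2, AOS 1, AOS 2, busulfan 3 or busulfan + AOS 2; the replicate block gave 1351. Effectors called for busulfan numbered 1 with the interferon state as a covariate, 1 with DESeq2, 2 without the high libraries and 0 to 2 with 1 library left out. AOS calls went from 0 to 13 with DESeq2 and 0 to 1 with 1 library left out, and interaction calls from 0 to 16 and 0 to 1. The interaction estimate for Ifit1, -0.63, turned to 0.87 without AOS 2 and 0.02 without busulfan 2, in a range of -1.56 to 0.87 with 1 library left out; its adjusted p was 0.992. With busulfan means removed, the r of Ifit1 and Irf7 in the low libraries went from 0.58 to 0.91 and passed the adjustment. The cause of these shifts was not tested beyond the loss of libraries. Over all genes, same-numbered libraries did not deviate together (r -0.28 to 0.21 over 18 pairs, 2 above 0.1, and 0 of 12 libraries closest to their own number). A check over all genes cannot show whether they share an origin that acts on fewer genes, and this was not tested.

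With 4 libraries against 8, chosen by the outcome, the differences carry no error beyond the ranges given. Intervals and floors cover counting error only.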
